A study of Mus musculus with 10 samples.

Results

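CD organoids grown for 7 days in collecting duct differentiation medium (CDDM) were compared with UB organoids of day 10, the stage from which they were differentiated, over every autosomal gene with at least 10 counts in the 4 libraries. Of the 39273 genes in the deposited table, 37710 lie on autosomes and 19603 of these met the count limit. The series holds RNA-seq libraries of UB organoids of days 5, 10 and 20, of CD organoids and of adult CD cells, with 2 libraries in each of the 5 groups. All organoid libraries are labelled as *Wnt11*-RFP +/- on a C57BL/6 x Swiss Webster background and as embryonic day 11, and the study's methods start the cultures from isolated ureteric buds, which grow as 3D organoids in Matrigel. UB organoids of day 10 and day 20 were kept in UB culture medium (UBCM) throughout. CD organoids spent 10 days in UBCM, with a passage as single cells at day 5, and then 7 days in CDDM. By the study's methods the adult CD cells were sorted by fluorescence from kidneys of *Hoxb7*-Venus mice about 2 months old, but their labels call them organoids and repeat the genotype and embryonic age of the cultures, so what these 2 libraries hold was not settled and their values are given for orientation only. The labels do not say whether the day 10 libraries came from the cultures that were differentiated. Levels of Y-linked genes, given below, differ widely between these 2 groups, so day 10 stands here for the stage and not for the same cultures. The RFP reporter follows *Wnt11*, a tip gene, in both groups.

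The ureteric bud branches from the nephric duct into the kidney mesenchyme, and its tips hold progenitors that divide under GDNF, which acts through the receptor tyrosine kinase RET, and under FGFs, which act through their own receptors, and both kinds of receptor use the ERK pathway. Cells that leave the tip form the stalk and later the collecting duct, whose principal cells take up sodium and water and whose intercalated cells move acid and base. The UBCM holds GDNF, FGF9, R-spondin 1, the GSK3 inhibitor CHIR99021, which raises beta-catenin, the retinoid TTNPB, and inhibitors of BMP receptors (LDN-193189), TGF-beta receptors (A83-01), JAK kinases and p38 (SB202190). The CDDM keeps FGF9 and holds in place of the rest the MEK inhibitor PD0325901, the gamma-secretase inhibitor DAPT, which blocks Notch, the ROCK inhibitor Y27632, aldosterone and vasopressin. All these changes and the added days enter the comparison together, and the effects of single components cannot be told apart.

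The 2 day 10 libraries held 22858971 and 24536676 counts and the 2 CD organoid libraries 13554738 and 11913613. A count of 3 corresponded to 0.119 and 0.109 CPM, the counts scaled to a common library size, at day 10 and to 0.214 and 0.241 CPM in CD organoids, limits that cover counting error only. Here and throughout, CPM uses the library total times a composition factor (TMM), and is not corrected for gene length. In the day 10 libraries 4 Y-linked genes summed to 0.317 and 0.875 CPM, against 290.2 and 295 CPM in CD organoids, a difference that the labels do not describe. Mitochondrial genes took 1.28% and 1.58% of counts at day 10 and 3.16% and 3.19% in CD organoids. The part of depth, embryo sex and mitochondrial RNA in the results was not tested. UB organoids of day 20, with 14953162 and 14100815 counts and 229.8 and 259 CPM of the Y-linked genes, lie nearer to the CD organoids in both and are set beside the results. In bulk RNA, fewer cells of a type and less RNA per cell cannot be told apart. The study states that RNA-seq samples were run at least in duplicate and that experiments were repeated independently, but not whether the libraries of a group came from separate cultures, so p-values may measure technical spread only.

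The collecting duct label held in direction against its defining genes. Of 11 measured principal cell genes 8 were called higher in CD organoids, of 16 intercalated cell genes 15, and of 10 tip genes 8 were called lower. Of all autosomal genes 5.93% were called higher and 6.71% lower. In level, the summed principal cell list reached 15.4% and 14.1% of the adult mean in the CD organoid libraries. The intercalated cell list reached 82.8% and 78%. By staining, the study counted a larger share of intercalated cells in CD organoids than in neonatal or adult duct, and a bulk sum follows cell share. The adult libraries also held genes of other tubule segments, given below. The part of either in these percentages was not tested, and they do not give a level per cell. The rest of the transcriptome, beyond these genes, is described here.

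Of the 19603 autosomal genes, 1162 (5.93%) were called higher in CD organoids and 1315 (6.71%) lower. These 2 shares are the background for the counts over lists and families below, and a count near them does not set a list apart. A call needed more than 4-fold and an adjusted p no larger than 0.01 by edgeR's quasi-likelihood test, and 17126 genes had none. Of the genes called higher 833 are protein coding, and of those called lower 979. The median log2 fold change was 3.13 among the former, -2.96 among the latter and -0.12 over all autosomal genes. The libraries of a group lay close together. Over 10912 genes with a mean of at least 5 CPM, the median absolute log2 difference was 0.132 between the 2 day 10 libraries, 0.0726 between the 2 CD organoid libraries and 0.548 between the group means. Of the 2650 genes just inside the count limit, with 10 to 19 counts over the 4 libraries, 97 were called, and of the 2543 genes with 5 to 9 counts that were tested through the other libraries, 17.

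The genes called higher took 1.22% and 1.23% of counts at day 10 and 9.29% and 9.29% in CD organoids. Those called lower took 5.2% and 5.36% at day 10 and 0.552% and 0.558% in CD organoids. These shares are set by the choice of the genes. The same genes in libraries outside this contrast took 2.06% and 2.18% (higher) and 4.99% and 4.83% (lower) of counts at day 20 in UBCM, and 11.4% and 11.5% (higher) and 1.69% and 1.64% (lower) in adult CD cells. Both shares at day 20 were thus nearer to day 10 than to CD organoids.

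**Figure D1:**
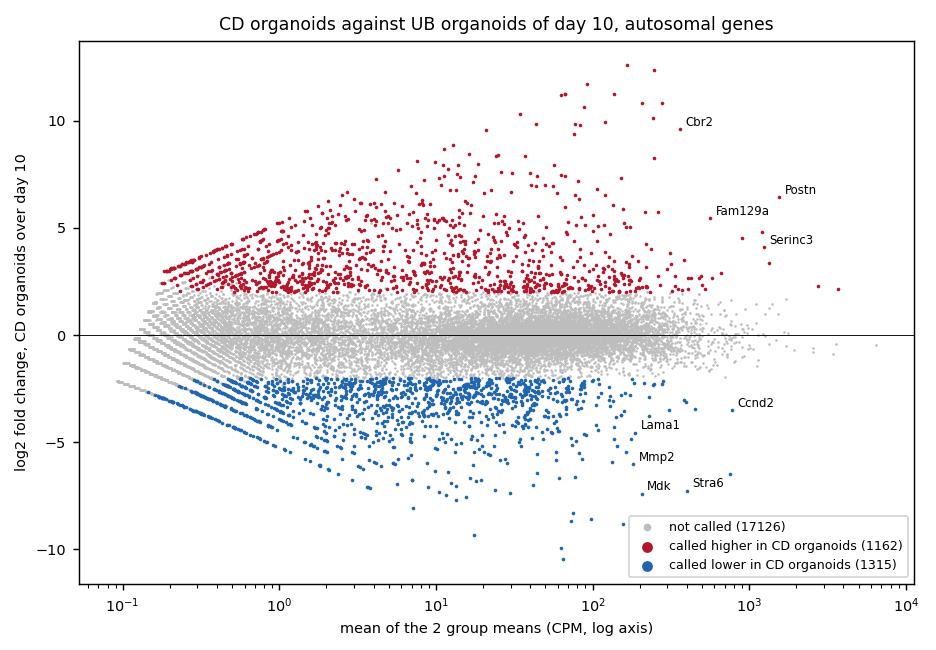
Each point is an autosomal gene, placed by the mean of its 2 group means in CPM (log axis) and by its log2 fold change in CD organoids over UB organoids of day 10. Red points are the 1162 genes called higher, blue points the 1315 called lower and grey points the 17126 not called, and 9 of the genes with the largest change in CPM are named.

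The genes that gained most CPM outside the marker lists are described first. *Atp1b1* (chromosome 1), which codes for the beta subunit of the sodium pump that drives sodium uptake in the duct, rose from 82.6 and 67.1 to 1714 and 1739.5 CPM, a log2 fold change of 4.53 (approximate standard error, SE, 0.156, adjusted p = 6.00e-11). SE here and below is the size of the log2 fold change divided by the square root of the test's F value. It is not a fitted standard error and can understate the error where a group holds few counts. *Atp6v1a*, the catalytic subunit of the proton pump, was at 138 and 123 CPM at day 10 and 865 and 799.8 CPM in CD organoids. The adult CD cells held 4373 CPM of *Atp1b1* and 1322 CPM of *Atp6v1a*.

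*Postn* (chromosome 3, 54361109 to 54391037), which codes for the matrix protein periostin, was at 17.4 and 54 CPM at day 10 and 3427 and 2751 CPM in CD organoids (log2 fold change 6.43, SE 0.424, adjusted p = 2.48e-08). The 2 day 10 libraries differed widely from each other but lay far under the CD organoids, and the adult mean was 4.84 CPM. *Clu*, a secreted chaperone, rose from 88.1 and 77.8 to 2267 and 2370.4 CPM and *Lcn2*, an iron-siderophore binding protein of injured tubules, from 122 and 187 to 1012 and 1322 CPM. *Lcn2* stood at 759.5 and 747 CPM at day 20 and was not called there against CD organoids (log2 fold change 0.63, adjusted p = 0.0405).

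*Cbr2* (chromosome 11, 120729489 to 120732114), a carbonyl reductase, had the widest fold of the 12, from 0.595 and 1.13 to 732 and 715 CPM with a log2 fold change of 9.61 (SE 0.157, adjusted p = 1.23e-12). *Serinc3*, a membrane protein, rose from 129 and 145 to 2375 and 2324 CPM and *Fam129a* from 26 and 24.5 to 1160.01 and 1053 CPM. *Tchh*, which codes for trichohyalin of hair follicles, rose from 79.1 and 176 to 892 and 837 CPM. The 2 nuclear long RNAs *Malat1* and *Neat1* rose from 1302 and 1405 and from 138 and 179 CPM to 5895 and 6213 and to 985 and 1021 CPM, in the libraries in which mitochondrial counts also took a larger share. Whether the nuclear RNAs follow RNA quality was not tested. Per gene length, which allows levels of different genes to be compared, *Malat1* had a mean of 719 RPKM in CD organoids, *Serinc3* of 561 and *Atp1b1* of 415 RPKM.

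The genes that lost most CPM follow. *Ccnd2*, which codes for cyclin D2 of the G1 phase, fell from 1403 and 1457 to 133 and 119 CPM, a log2 fold change of -3.50 (SE 0.100, adjusted p = 1.24e-11). *Stra6* (chromosome 9, 58063788 to 58153996), the receptor that takes up retinol, fell from 783 and 802 to 5.2 and 4.97 CPM with a log2 fold change of -7.27 (SE 0.176, adjusted p = 3.46e-12). *Mdk* (chromosome 2, 91929805 to 91932297), a heparin-binding growth factor that retinoic acid is known to induce, fell from 413 and 406 to 2.71 and 1.92 CPM (log2 fold change -7.42, SE 0.14, adjusted p = 1.04e-12). Neither CD organoid library came near the day 10 levels in either gene.

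*Hs3st3b1*, a heparan sulfate sulfotransferase, fell from 387 and 470.3 to 28.5 and 33.4 CPM, *Mmp2*, a gelatinase, from 298 and 419 to 6.48 and 4.25 CPM and *Fn1*, fibronectin, from 708 and 659.7 to 116 and 49.6 CPM. The 2 CD organoid libraries differ more in *Fn1* than in the other 2 genes, but neither reaches the day 10 range. *4931406C07Rik* had the smallest fold of the 12 and fell from 446 and 476 to 91.1 and 97.2 CPM. The remaining genes, *Cyp26b1*, *Mki67*, *Top2a*, *Dusp6* and *Lama1*, are given with their pathways. Of the 24 genes, *Lcn2*, *Cbr2* and *Cyp26b1* were also called between day 20 in UBCM and day 10, a comparison in which 1.75% of autosomal genes were called higher and 2.08% lower, with log2 fold changes of 2.28, 3.03 and -3.22.

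**Figure D2:**
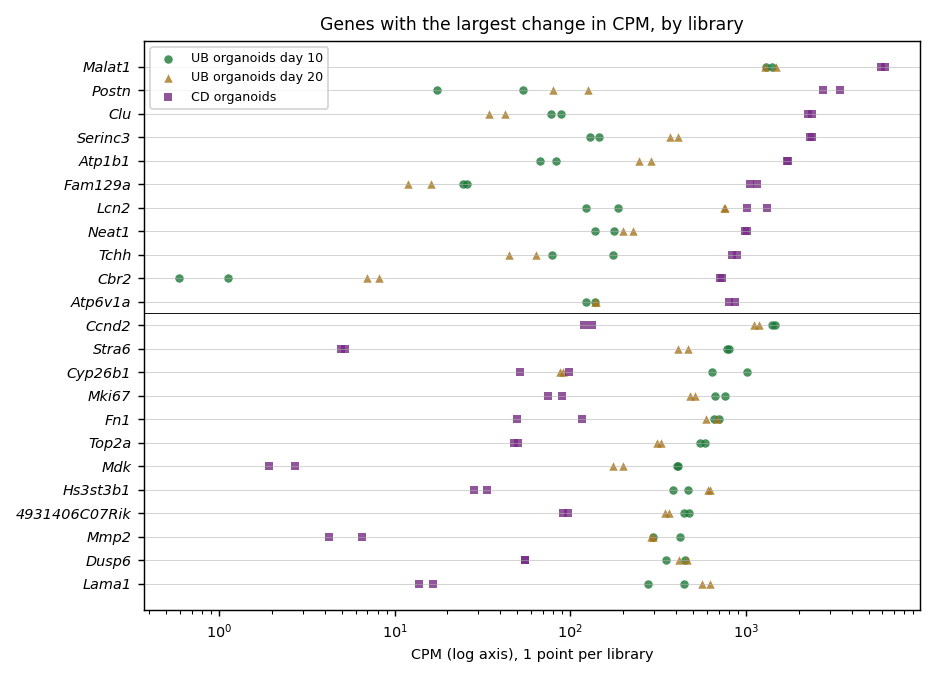
CPM (log axis) of 23 of the 24 autosomal genes with the largest change in CPM outside the principal cell, intercalated cell and tip lists, with 1 point per library for day 10 (circles), day 20 (triangles) and CD organoids (squares). The 11 genes above the line were called higher and the 12 below it lower in CD organoids than at day 10, and for *Cyp26b1* the day 20 libraries lie within the range of the CD organoids.

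The ERK pathway runs from receptor tyrosine kinases through MEK to ERK, which switches on its own inhibitors (the DUSP phosphatases and the Sprouty and Spred proteins) and the ETV factors. CDDM adds a MEK inhibitor and removes GDNF. Of 20 measured ERK targets 10 were called lower and 0 higher in CD organoids, with a median log2 fold change of -2.11, against 6.71% of all autosomal genes called lower. *Dusp6* (chromosome 10), the ERK phosphatase, fell from 353 and 453 to 55 and 55.1 CPM, *Dusp4* from 82.1 and 110.3 to 9.04 and 6.98 CPM and *Spry4* from 75 and 91.2 to 5.48 and 2.81 CPM. *Etv4*, a transcription factor downstream of RET, fell from 321 and 304 to 0.854 and 0.401 CPM, the largest fold of the list at a log2 of -8.81 (SE 0.247, adjusted p = 1.11e-11).

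*Ccnd1*, which codes for cyclin D1, fell from 147 and 252 to 11.7 and 10.2 CPM. *Egr1*, an immediate target, fell from 107 and 122 to 2.85 and 7.54 CPM, *Etv1* had a log2 fold change of -2.70, and the ephrin receptor genes *Epha2* and *Epha4* of -3.55 and -3.26. Not every inhibitor of the pathway moved that far. *Spry2*, *Spry1* and *Spred1* had log2 fold changes of -1.12, -0.67 and -0.49 and were not called, and *Ier3* was at 0.61. Against day 20, where 5.49% of all autosomal genes were called lower in CD organoids, 14 of the 20 were. That count also holds a rise at day 20, where 3 of the 20, *Egr1* among them, were called higher than at day 10. The summed list had a mean of 2869 CPM at day 10 and 6406 CPM at day 20.

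Beta-catenin targets stood lower as well. Of 16 measured genes 9 were called lower and 0 higher, with a median of -2.33 on the log2 scale. *Axin2*, which codes for a scaffold of the complex that degrades beta-catenin and is its usual reporter gene, fell from 200.2 and 213 to 11.1 and 7.78 CPM (log2 fold change -4.43, SE 0.138, adjusted p = 2.54e-11). *Nkd1*, a feedback inhibitor, fell from 135 and 152 to 4.63 and 3.29 CPM, and the factors *Lef1* and *Tcf7*, through which beta-catenin acts, from 42.9 and 59.4 and from 89.2 and 119 CPM to 3.7 and 1.84 and to 4.2 and 4.89 CPM. The R-spondin receptor gene *Lgr5* fell from 9.95 and 11.1 to 0.285 and 0.16 CPM. The ubiquitin ligase genes *Rnf43* and *Znrf3*, which remove Frizzled receptors, were at -0.92 and -1.60 and were not called, and *Kremen1* at -0.10 (adjusted p = 0.355). Among Wnt ligands and Frizzled receptors, 5 of 23 were called lower and 1 higher, and *Fzd10* fell from 37.9 and 103 to 6.05 and 4.89 CPM.

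Of 11 genes of retinoic acid response and turnover, 4 were called lower and 1 higher. Beside *Stra6*, the genes called lower included *Lrat*, which stores retinol as an ester and fell from 7.29 and 14.2 to 1.35 and 1.52 CPM, and *Cyp26b1*, which breaks retinoic acid down and fell from 1014 and 643 to 51.5 and 98.8 CPM. *Cyp26b1* was at 87.4 and 90.7 CPM at day 20, where the UBCM still holds TTNPB, and did not pass the test between CD organoids and day 20 (log2 fold change -0.25, adjusted p = 0.485). The receptor gene *Rarb*, itself a target, was at 29.3 and 24.6 and 7.12 and 7.62 CPM, a log2 fold change of -1.86 (adjusted p = 6.37e-08) that lies under the 4-fold limit. *Tgm2*, the transglutaminase, went the other way and rose from 10.2 and 8.79 to 146 and 169 CPM.

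Corticosteroid receptors switch on genes of sodium uptake. Of 14 measured genes of this pathway 7 were called higher and 0 lower, against 5.93% of all autosomal genes called higher. *Sgk1* (chromosome 10, 21882184 to 21999903), the kinase through which aldosterone keeps sodium channels at the membrane, rose from 4.32 and 5.29 to 169.8 and 178 CPM (log2 fold change 5.16, SE 0.118, adjusted p = 2.09e-12). *Zbtb16*, a transcription factor known as a corticosteroid target, rose from 0.357 and 0.0729 to 15.3 and 11.3 CPM and the mineralocorticoid receptor gene *Nr3c2* from 4.08 and 3.39 to 40.6 and 41.5 CPM.

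Of the sodium channel subunits, the 2 that were called, with *Hsd11b2*, are also on the principal cell list. *Scnn1a* rose from 1.31 and 2.59 to 161 and 165 CPM and *Scnn1b* from 82.3 and 61.6 to 312 and 339.8 CPM, while *Scnn1g* was at 90.4 and 52 and 119.6 and 128 CPM and was not called (log2 fold change 0.80, adjusted p = 0.0105). *Hsd11b2*, the enzyme that keeps glucocorticoids from the mineralocorticoid receptor, rose from 3.45 and 3.5 to 44.6 and 32.8 CPM and stood at 2603 CPM in adult CD cells. *Fkbp5* and *Per1*, targets shared with the glucocorticoid receptor, had log2 fold changes of 0.99 and 1.02, within the 4-fold limit. Vasopressin acts through cyclic AMP. Of 11 CREB targets 2 were called higher, *Crem* from 7.85 and 8.5 to 46.9 and 47 CPM and *Rgs2* from 14.9 and 12.2 to 107 and 86.7 CPM, and none lower. At day 20, in UBCM without vasopressin, 4 of the 11 had a call above day 10 and 0 a call below it. Set against day 20, the CD organoids had 2 calls below it in this list and 0 above. The summed list had a mean of 218 CPM at day 10, 1921 CPM at day 20 and 580 CPM in CD organoids. Whether vasopressin had a part in these values was not tested.

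**Figure D3:**
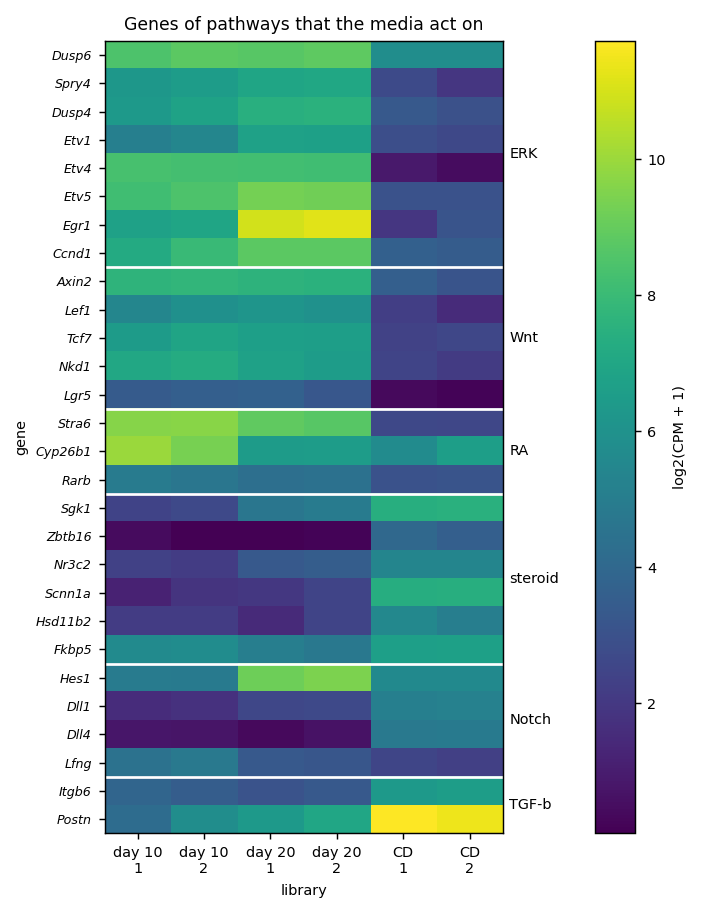
Levels of genes of 6 pathways, chosen after their values were seen, in each library of day 10, day 20 and CD organoids, as log2(CPM + 1) on the colour scale. The ERK and Wnt genes are darkest in the 2 CD organoid columns and the steroid genes are brightest there, while *Hes1* and *Egr1* are brightest at day 20.

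Notch receptors, cut by gamma-secretase, switch on the HES and HEY factors. Of 15 measured genes 2 were called higher and 1 lower, the latter close to the 6.71% of all autosomal genes. The ligand genes *Dll1* and *Dll4* rose from 1.98 and 2.33 and from 0.714 and 0.656 CPM to 33.7 and 36 and to 27.3 and 27.5 CPM. The target *Hes1* was at 29.3 and 28.6 and 47.7 and 47.9 CPM and not called (log2 fold change 0.72, adjusted p = 0.00194), and the targets *Nrarp* and *Heyl* were at -0.83 and -1.87. *Lfng*, a glycosyltransferase that tunes the receptors, fell from 21.2 and 27 to 4.77 and 3.93 CPM. Against day 20, where *Hes1* was at 571 and 689 CPM, its log2 fold change in CD organoids was -3.72 (adjusted p = 7.35e-10).

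The CDDM leaves out inhibitors of TGF-beta, BMP and JAK signals. Of 13 TGF-beta targets 5 were called higher and 1 lower. *Itgb6*, an integrin that activates TGF-beta, rose from 13.9 and 10.6 to 83.9 and 93.5 CPM. The genes called higher also included the matrix genes *Postn*, *Col1a1* and *Lox*, and the gene called lower was *Fn1*. Mesenchymal genes also rose in the same libraries, and *Col1a1* reached 76.3 and 30.6 CPM in CD organoids, of which the first library also held more *Col1a2* and *Col3a1*. Their part in this list was not tested. *Skil* and *Pmepa1*, feedback regulators of the pathway, were at 0.74 and 1.65 and not called.

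Of 14 BMP targets 1 was called higher, *Grem1*, and 1 lower, *Atoh8*, close to the shares of all autosomal genes (5.93% and 6.71%). Both were under 5 CPM, and *Atoh8* was not called (log2 fold changes -2.08 to -1.98) without the second day 10 library or either CD organoid library. The ID factors, the usual readout of BMP signals, were not called, with log2 fold changes of 0.41 for *Id1*, -0.23 for *Id2* and -1.12 for *Id3*. Of 12 JAK-STAT genes 2 were called higher. *Stat3* rose from 78.4 and 58.5 to 311 and 308 CPM, whereas the feedback genes *Socs3* and *Cish* were at 0.97 and 1.09 and not called, and *Socs2* fell with a log2 fold change of -2.34. Without the second day 10 library *Stat3* (2.00) and *Socs2* (-1.88) came under the 4-fold limit. Of 15 actin and YAP targets, which the ROCK inhibitor could reach, 1 was called higher, close to the share of all autosomal genes, and 2 lower. *Ccn1* fell from 102 and 51.6 to 6.05 and 7.38 CPM, and the other 2 calls, *Acta2* and *Tpm2*, were under 2 CPM.

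**Figure D4:**
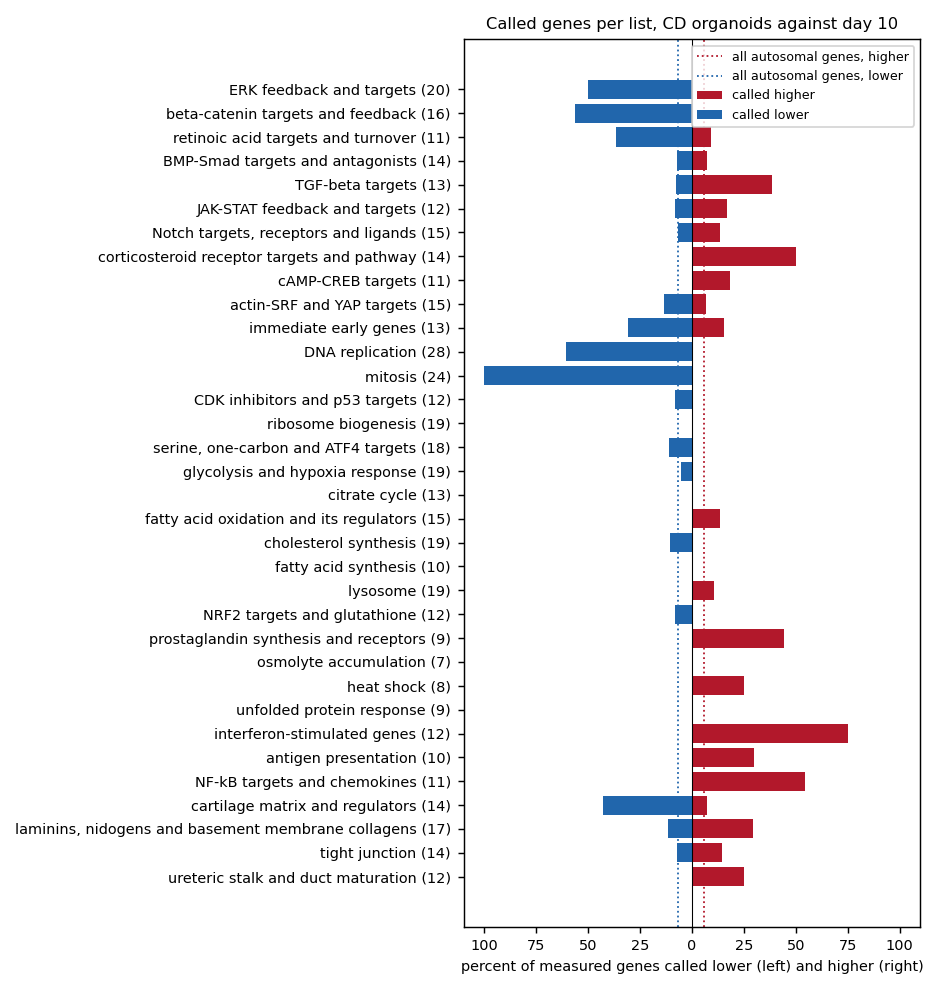
For each list of genes outside the marker lists, bars give the percentage of its measured genes (number in brackets) that were called lower (left, blue) and higher (right, red) in CD organoids than at day 10. Dotted lines mark 6.71% and 5.93% of all autosomal genes, and the mitosis list reaches 100% on the left while the interferon list reaches 75% on the right.

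Cell division genes stood lower throughout. All 24 of 24 mitosis genes were called lower in CD organoids, with log2 fold changes from -3.70 to -2.43 and a median of -3.07. *Mki67*, the usual marker of cycling cells, fell from 666 and 759.9 to 75 and 90.2 CPM (log2 fold change -3.11, SE 0.107, adjusted p = 5.85e-11). *Top2a*, which untangles DNA before division, fell from 545 and 586 to 48.1 and 50.4 CPM, and *Cdk1*, the kinase that starts mitosis, from 124 and 136 to 14.5 and 18 CPM. *Cenpa*, the histone of centromeres, had the largest fold of the list, from 110.4 and 117 to 8.33 and 9.14 CPM, and *Ndc80* the smallest, from 26.4 and 30.7 to 4.56 and 6.01 CPM. The same 24 genes were all called lower against day 20 too, and none of them was called between day 20 and day 10 (median log2 fold change -0.48).

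DNA replication genes stood lower too. Of 28 measured genes 17 were called lower and none higher, with a median of -2.29. *Mcm10* and *Cdc45*, of the helicase that opens the DNA, fell from 37.7 and 44 and from 23.6 and 24.5 CPM to 3.77 and 3.61 and to 2.49 and 2.73 CPM. *Rrm2*, which supplies deoxynucleotides, fell from 85.2 and 98.3 to 11.7 and 13 CPM. *Pcna* and *Mcm2* lay within 4-fold, at -1.32 and -1.44, and the 11 genes that were not called all had an adjusted p no larger than 0.05. *Foxm1*, which switches on mitosis genes, fell from 68.3 and 75.9 to 8.61 and 9.3 CPM and *E2f1*, which switches on replication genes, from 37.9 and 32.1 to 4.06 and 5.77 CPM.

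The inhibitors of cyclin-dependent kinases did not rise with this. Of 12 inhibitors and p53 targets 0 were called higher and 1 lower. *Cdkn1a* (p21) was at 250.5 and 172 and 95.7 and 94.9 CPM, a log2 fold change of -1.15, *Cdkn1b* (p27) at -0.25 and *Cdkn1c* (p57) at -0.19 (adjusted p = 0.326). *Gas1*, the gene called lower, fell from 31 and 25.6 to 2.71 and 3.61 CPM, and *Btg1*, an antiproliferative gene, was at 110.2 and 105 and 309.6 and 324 CPM, under 4-fold.

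The promoters of these genes are shown because cell cycle genes are known to share sequence elements near their start. RefSeq windows of 300 bases on GRCm38.p6, from 250 bases before to 50 after a gene's start, were found for 20 mitosis genes, 23 replication genes and, by symbol, 12514 of the 19603 autosomal genes. The cell cycle homology region (CHR, TTTGAA, on either strand) was in 75% of the mitosis windows, against 17.9% of all 32851 windows, and a CCAAT box (CCAAT, on either strand) in 85% against 37.4%. The E2F element (GCGGGAA, on either strand) was in 48% of the replication windows and in 0% of the mitosis windows, against 4.6% of all. An E2F match and a CCAAT match can share a base, as they do in *Prim1*, where only the E2F letters are marked. Over all genes called lower the shares were 15.7% for CHR, 38.3% for CCAAT and 8.77% for E2F, beside 12.1%, 37.1% and 7.55% of windows of genes not called. In windows of genes called higher they were 16.9%, 33.5% and 4.74%, so the CHR share was no larger among genes called lower. A match is a description of the letters and not a site of binding. The bases just before the start of 3 mitosis genes, with CHR and CCAAT in capitals, and of 2 replication genes, with E2F in capitals, read 5′ to 3′ on the gene's strand as follows, and capitals that hold the reverse complement mark a match on the other strand.
Cdc20, chr4:118437344-118437463, minus strand: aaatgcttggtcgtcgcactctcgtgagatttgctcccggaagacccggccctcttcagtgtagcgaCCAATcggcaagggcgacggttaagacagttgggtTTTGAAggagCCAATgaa
Cdk1, chr10:69352913-69353032, minus strand: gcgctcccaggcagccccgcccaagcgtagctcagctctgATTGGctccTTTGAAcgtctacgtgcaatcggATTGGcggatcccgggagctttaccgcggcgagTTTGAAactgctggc
Ube2c, chr2:164769809-164769928, plus strand: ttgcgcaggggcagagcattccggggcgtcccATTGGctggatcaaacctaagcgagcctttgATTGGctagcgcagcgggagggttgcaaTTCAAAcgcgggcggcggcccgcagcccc
Prim1, chr10:128015155-128015214, plus strand: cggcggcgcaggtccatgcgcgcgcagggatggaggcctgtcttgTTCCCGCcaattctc
Chaf1a, chr17:56040336-56040415, plus strand: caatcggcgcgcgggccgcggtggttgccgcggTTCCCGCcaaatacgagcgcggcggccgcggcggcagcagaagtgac

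Of these genes, *Cdc20*, the activator of the anaphase complex, fell from 70.1 and 80.8 to 10.8 and 10.2 CPM, and *Ube2c*, its ubiquitin carrier, from 107 and 122 to 11.7 and 14.6 CPM. *Prim1*, which codes for a primase subunit, fell from 53.7 and 54 to 8.47 and 9.86 CPM and *Chaf1a*, which places histones on new DNA, from 60.3 and 68.1 to 9.9 and 11.2 CPM. *Cdk1*, whose 120 bases hold 2 CHR and 2 CCAAT matches, had a log2 fold change of -3.00 (SE 0.111).

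Genes of ribosome production stood lower within the 4-fold limit. None of 19 measured genes was called, with a median of -1.22, and 18 of them had an adjusted p no larger than 0.05 with a lower level in CD organoids. *Ncl* and *Npm1*, abundant nucleolar proteins, were at 1085 and 1178 and at 865 and 837 CPM at day 10 and at 484 and 487 and at 261 and 268 CPM in CD organoids. The 76 cytosolic ribosomal protein genes had a median of -1.06, with 1 called, and the 78 mitochondrial ones a median of -0.10, close to the -0.12 of all autosomal genes.

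Mitochondria burn fatty acids through the citrate cycle and the respiratory chain. Of 15 genes of fatty acid oxidation 2 were called higher, the nuclear receptors *Esrrg*, from 18 and 12.3 to 113 and 107 CPM, and *Esrra*, from 25.5 and 25 to 99.9 and 104 CPM, which switch on mitochondrial genes. *Esrra* (1.996 on the log2 scale) came just under the limit without the second CD organoid library. *Cpt1a*, which brings fatty acids into mitochondria, was at 29.3 and 49.4 and 146 and 143 CPM (log2 fold change 1.88, adjusted p = 3.70e-07) and not called. None of 13 citrate cycle genes was called, at a median of 0.54, and 11 of them were higher at an adjusted p no larger than 0.05. The respiratory complex I family had a median of 0.27 and the cytochrome oxidase family of 0.66.

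Genes of synthetic pathways stood lower within similar limits. Of 19 cholesterol genes 2 were called lower, among them *Dhcr7*, from 154 and 131 to 25.4 and 23.7 CPM, at a median of -1.17. Of 18 serine and amino acid genes 2 were called lower, the transporter genes *Slc7a5* and *Slc7a11*, at a median of -1.14. In glycolysis and the hypoxia response 1 of 19 genes was called, *Slc2a3*, a glucose carrier that fell from 63 and 12 to 4.84 and 3.37 CPM and whose 2 day 10 values lie far apart. It was not called without the first day 10 library (log2 fold change -1.51) or without either CD organoid library (-3.45 and -2.92). No gene was called in the lists of fatty acid synthesis (10 measured genes), osmolyte accumulation (7) or the unfolded protein response (9). Of 12 NRF2 targets *Slc7a11* alone was called, and of 8 heat shock genes *Hspb1*, from 4.24 and 3.28 to 48.5 and 46.2 CPM, and *Hspa1b*, from 23.1 and 27.3 to 113 and 116 CPM, were called higher.

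Lysosome genes stood higher, with a median of 0.85 over 19 measured genes, of which 2 were called. *Ctsd*, the lysosomal protease cathepsin D, rose from 128 and 107 to 763 and 709 CPM. *Lamp1*, a membrane protein of the lysosome, was at 1.63 on the log2 scale and *Tfeb*, the factor that controls lysosome genes, at 1.67, both under 4-fold. Of 22 proton pump subunits 9 were called higher, with a family median of 1.64. Some of these are intercalated cell markers, such as *Atp6v0d2*, which rose from 0.0396 and 0.0729 to 279 and 266 CPM, a ratio of 4785 (95% counting interval 1637 to 23203), as the day 10 libraries held 3 counts together.

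Prostaglandins act on water and salt uptake in the duct. Of 9 measured genes of their pathway 4 were called higher and none lower. *Ptgs2* (COX-2), which makes the precursor of all prostaglandins, rose from 2.3 and 1.9 to 62.4 and 69 CPM and *Ptges*, which makes prostaglandin E2, from 27.1 and 19 to 245 and 256 CPM (log2 fold change 3.44, SE 0.167, adjusted p = 1.26e-09). *Hpgd*, which breaks prostaglandin E2 down, rose from 0.396 and 0.146 to 54 and 68 CPM, so that genes of synthesis and of breakdown were both among the calls. The receptor gene *Ptger4* rose from 1.74 and 1.79 to 10.8 and 10.4 CPM. *Ptgs1* and *Pla2g4a* were at 1.80 and 1.87, under 4-fold.

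Carriers and channels move solutes across the membranes of the duct. Of 258 solute carrier genes 33 were called higher, against 5.93% of all autosomal genes, and 18 lower, close to the 6.71% of all, with a median of 0.26. *Slc34a2*, a phosphate carrier, rose from 0.119 and 0.583 to 79.2 and 79.9 CPM and *Slc5a9*, a sugar carrier, from 0.0793 and 0.219 to 15.3 and 17.2 CPM, beside the intercalated cell carriers *Slc4a9* and *Slc26a4*. Of 72 potassium channel genes 10 were called higher and 18 lower. *Kcnj16*, a channel of the basolateral membrane, rose from 4.6 and 3.1 to 262 and 268 CPM and *Kcne1* from 0.396 and 0.255 to 12 and 11.1 CPM. *Kcna2*, known from neurons, fell from 21.6 and 24.9 to 0 and 0.16 CPM, a day 10 to CD ratio of 308 (95% counting interval 85.3 to 2544) on 2 counts in CD organoids, and *Kcng1*, from 7.57 and 7.07 CPM to no count, was at least 64.7-fold lower against a floor of 3 counts over the group.

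Interferons switch on antiviral genes that most epithelia keep low. Of 12 interferon-stimulated genes 9 were called higher and none lower, with a median of 3.35 on the log2 scale. *Rsad2*, an antiviral enzyme, rose from 1.11 and 3.94 to 25.3 and 20.8 CPM, *Irf7*, a factor of the interferon response, from 0.991 and 0.802 to 11.8 and 12.3 CPM and *Ifit1* from 0.396 and 0.51 to 5.34 and 6.58 CPM. *Isg15* reached only 0.641 and 0.962 CPM and *Oas1a*, with no count at day 10, 0.641 and 0.802 CPM, at least 12.7-fold higher against a floor of 3 counts over the group. The most abundant member, *Ifitm3*, was at 13.6 and 13.5 and 40.8 and 35.4 CPM and not called. *Isg15* was not called without the second day 10 library (log2 fold change 1.99) or the second CD organoid library (2.24). Adult CD cells held 27.2 CPM of *Ifit1* and 29.1 CPM of *Irf7*.

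The interferon-stimulated response element (GAAA, any 2 bases and GAAA, on either strand) was in 70% of the 10 windows found for this list, against 3.44% of all windows and 5.46% of those of genes called higher. It is shown in capitals in the bases before the start of *Isg15*, where 3 overlapping matches merge, and of *Ifit1*, where 2 lie on the other strand (RefSeq, GRCm38.p6).
Isg15, chr4:156200819-156200918, minus strand: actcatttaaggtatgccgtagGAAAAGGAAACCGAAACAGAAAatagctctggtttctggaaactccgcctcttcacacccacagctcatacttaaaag
Ifit1, chr19:34640769-34640888, plus strand: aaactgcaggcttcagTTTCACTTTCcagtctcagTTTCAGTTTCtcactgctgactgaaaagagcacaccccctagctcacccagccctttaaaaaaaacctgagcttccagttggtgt

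A corticosteroid receptor element (GNACA, any 3 bases and TGTNC, on either strand) was in 1 of 18 windows of the steroid list, against 0.475% of all windows, and a TCF element (CTTTGAT, on either strand) in 2 of 17 windows of the beta-catenin list, against 3.73%. These windows reach no farther than 250 bases before the start.

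Class I molecules present peptides on all cells and class II molecules on immune cells. Of 10 genes of antigen presentation 3 were called higher. *H2-D1*, a class I molecule, rose from 4.88 and 2.41 to 169 and 162 CPM, although reads of near-identical class I genes could have been shared out by the authors' counting. *Cd74*, the chain that guides class II molecules, rose from 0.476 and 0.583 to 61 and 58.1 CPM, while the class II genes *H2-Aa*, *H2-Ab1* and *H2-Eb1* were all under 2 CPM in CD organoids, with *H2-Ab1* called higher on 1 count at day 10, a ratio of 58.1 (95% counting interval 10.4 to 2296). Of 11 NF-kB targets and chemokines 6 were called higher and none lower. *C3*, the central complement protein, rose from 0.396 and 0.401 to 103 and 123 CPM (log2 fold change 7.96, SE 0.223, adjusted p = 1.10e-11) and *Birc3*, an inhibitor of cell death, from 5.75 and 3.54 to 71 and 67.1 CPM. *Nfkbia* and *Tnfaip3*, the direct feedback genes, were at 1.17 and 1.41 and not called, and *Il6* was at or under 0.1 CPM in all 4 libraries.

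Of 8 leukocyte markers, *Ptprc* rose from 3.29 and 4.05 to 43.7 and 37.4 CPM and *Cd68* was at 8.19 and 8.66 CPM in CD organoids, while *Adgre1* and *Tyrobp* had no count there and *Csf1r*, *Lyz2*, *Cd3e* and *Fcer1g* were under 0.3 CPM. The summed level of the list was 6.86 and 8.39 CPM at day 10 and 52.2 and 46.2 CPM in CD organoids, most of it *Ptprc*.

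Among gene families, the serpins are mostly protease inhibitors, with 14 of 22 measured genes called higher, 2 lower and a median of 3.47. *Serpinb6b* rose from 0.198 and 0.146 to 153 and 150.4 CPM and *Serpinb9*, an inhibitor of granzyme B, from 3.09 and 1.97 to 244 and 232 CPM. *Serpina3g* had no count at day 10 and 14.6 and 15.8 CPM in CD organoids, at least 267-fold higher against 3 counts over the group. Of 7 gasdermins, which form membrane pores in dying or secreting cells, 5 were called higher. Of these *Gsdmc2*, *Gsdmc3* and *Gsdmc4* are paralogs that could share reads, so that their separate values are uncertain, and *Gsdmc2* stood at 301 and 368 CPM against 8.74 CPM in adult CD cells. Of 40 interleukin and interleukin receptor genes 12 were called higher and none lower, among them *Il1f6*, from 0.0793 and 0.0729 to 19.1 and 25.7 CPM, and the receptor gene *Il17re*, from 9.08 and 15.2 to 64.9 and 63.8 CPM. Of 8 glucuronosyltransferases 6 were called higher, but *Ugt1a* genes such as *Ugt1a7c* share exons, so that their separate values are uncertain.

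Matrix genes were called in both directions. Of 14 cartilage genes measured, which UB organoids express at day 10, 6 were called lower and 1 higher. *Col2a1* and *Col9a1*, cartilage collagens, fell from 207 and 44.6 and from 147 and 110.1 CPM to 0.0712 and 0.0802 and to 0 and 0.0802 CPM, day 10 to CD ratios of 1665 (95% counting interval 461 to 13751) and 3412 (95% counting interval 612 to 134786) that rest on 2 counts and 1 count in CD organoids. The day 10 libraries differ widely in *Col2a1*, and both stand far above the CD organoids. *Col11a1* fell from 205 and 146 to 7.55 and 6.17 CPM and *Hapln1*, a link protein, from 27.7 and 25.5 to 0.214 and 0.0802 CPM, while *Cnmd* (chondromodulin) rose from 4.36 and 5.14 to 19.7 and 21.3 CPM. *Col9a1*, *Col2a1* and *Hapln1* were also called lower at day 20 than at day 10, with log2 fold changes of -2.84, -3.79 and -4.13. *Cnmd* came just under the limit (1.99) without the first day 10 library.

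Basement membranes are built from laminins, collagen IV and nidogens. Of 17 measured genes 5 were called higher and 2 lower. *Lama1* (chromosome 17, 67697259 to 67822647), the laminin alpha chain of embryonic epithelia, fell from 277 and 442 to 16.4 and 13.8 CPM, while *Lama3* and *Lamb3*, chains of the laminin that anchors mature epithelia to hemidesmosomes, rose from 0.793 and 1.2 and from 0.832 and 1.9 CPM to 30.3 and 24 and to 54.7 and 51 CPM. *Col4a3* and *Col4a4*, of the mature collagen IV network, rose from 2.26 and 4.96 and from 10.3 and 17.5 CPM to 29.6 and 26.5 and to 65.2 and 58.1 CPM, and their adult means were 475 and 889 CPM. *Col4a4* was under the limit (1.83) without the first day 10 library. *Col4a1* and *Col4a2* were at -0.91 and -1.50 and *Lama5* at 0.30 (adjusted p = 0.096). *Nid1* rose from 19.8 and 15.6 to 80.9 and 79.7 CPM and *Nid2* fell from 44.7 and 31.6 to 5.05 and 3.53 CPM, the 2 nidogens thus moving apart.

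Integrins bind the matrix and proteases cut it. *Itgb4*, which binds that laminin, rose from 17 and 20.9 to 237 and 235 CPM, whereas *Itga9*, *Itga4* and *Itga5* had log2 fold changes of -3.73, -3.70 and -2.97. In all, 4 of 25 integrin genes were called higher and 5 lower. Of 37 ADAM and ADAMTS proteases 9 were called lower and 2 higher, and *Adamts18*, known from branching organs, fell from 40.0 and 54.8 to 0.142 and 0.401 CPM. Of 19 ephrins and their receptors 6 were called lower and none higher, with *Epha7* falling from 41.6 and 34.8 to 1.35 and 1.52 CPM. Of 72 cadherins and protocadherins 11 were called lower and 2 higher, the latter below the 5.93% of all autosomal genes.

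Tight junctions seal the space between epithelial cells. Of 14 tight junction genes 2 were called higher and 1 lower, the latter close to the 6.71% of all autosomal genes. *Cldn8*, a claudin of the collecting duct, rose from 192 and 196 to 832 and 869 CPM, and *Cldn6*, a claudin of embryonic epithelia, fell from 301 and 259 to 42.2 and 44.8 CPM. *Ocln* and *Tjp1*, which all such junctions use, were at 128 and 136 and at 339 and 324 CPM at day 10 and at 133 and 130.4 and at 241 and 256 CPM in CD organoids, and were not called. Of 12 stalk and duct genes 3 were called higher, *Clu*, *Krt7*, from 33.5 and 22.2 to 299 and 299 CPM, and *Krt19*, from 81.3 and 33.6 to 334 and 347 CPM. *Wnt7b*, a stalk ligand, was at 1.61 and *Elf3* at 1.79, and neither was called. Without the first day 10 library 6 genes of this list were called higher.

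Among transcription factors, *Sox8* and *Sox11* fell from 61.9 and 56.2 and from 409 and 410.3 CPM to 0.214 and 0.401 and to 84.3 and 82.7 CPM. *Foxq1* rose from 0.436 and 0.438 to 28.3 and 27.2 CPM and *Foxa1* from 1.94 and 1.68 to 40.4 and 49.2 CPM, while of 24 Fox genes 3 were called higher and 4 lower. Of 15 Kruppel-like factors 4 were called higher and 1 lower, with *Klf2* rising from 0.0793 and 0.292 to 34.2 and 35 CPM. It was at 23.2 and 38.2 CPM at day 20 and not called there against CD organoids (log2 fold change 0.17). Of 28 Hox genes 4 were called higher and none lower. The large Zfp group had 13 of 373 genes called lower and 2 higher, both below the shares of all autosomal genes, and *Zfp423* fell from 42.7 and 25.4 to 0.854 and 0.561 CPM.

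UB organoids kept in UBCM to day 20, which are older than the CD organoids by 3 days of culture, were closer to them in depth than the day 10 libraries. Between CD organoids and day 20, 1131 autosomal genes (5.77%) were called higher and 1076 (5.49%) lower, and between day 20 and day 10, 343 (1.75%) higher and 408 (2.08%) lower. These comparisons share libraries with the one described here, so their values are given side by side only. *Stra6* was at 469.9 and 413 CPM at day 20, *Axin2* at 193 and 182, *Mki67* at 516 and 481, *Lama1* at 624 and 562 and *Sgk1* at 24.2 and 29.3 CPM, with log2 fold changes of CD organoids against day 20 of -6.42, -4.30, -2.59, -5.29 and 2.70. For steroid targets 8 and for interferon genes 9 were called higher against day 20.

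The immediate early genes, which cells switch on within minutes of handling or a stimulus, set day 20 apart from both other groups. All 13 of 13 were called higher at day 20 than at day 10, and 11 were called lower in CD organoids than at day 20. *Fos* was at 3.41 and 3.21 CPM at day 10, 707 and 932 CPM at day 20 and 12.3 and 20.4 CPM in CD organoids, and *Egr1* at 107 and 122, 1949 and 2348 and 2.85 and 7.54 CPM. Between CD organoids and day 10, 2 of them, *Fos* and *Btg2*, were called higher and 4, *Egr1*, *Egr2*, *Egr3* and *Arc*, lower. *Fos* was not called without the second CD organoid library (1.89), nor *Egr3* without the first (-4.52). Adult CD cells held 4137 CPM of *Fos* and 4088 CPM of *Egr1*. The part of handling in these values was not tested.

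Genes of other cell types were looked up in the same libraries. The loop of Henle list had 5 of 7 genes called higher and the proximal tubule list 4 of 9, all of them under 10 CPM in CD organoids. Against day 20, 1 loop gene was called higher and 0 lower, and 0 proximal tubule genes higher and 1 lower. Between day 20 and day 10, 1 loop gene and 3 proximal tubule genes were called higher. *Umod*, uromodulin of the loop, was at 0.641 and 2.41 CPM in CD organoids against no count at day 10 (at least 26.7-fold higher, against 3 counts over the group) and 2060.3 CPM in adult CD cells, and *Kap*, a proximal tubule gene, at 1.5 and 7.86 against 5362 CPM. In both the second CD organoid library held the higher value, and without it neither *Kap* (4.11) nor *Umod* (3.73) was called, which left 2 calls in the loop list and 1 in the proximal tubule list. The second was also the higher day 20 library for *Kap* (0.789 and 6.34 CPM). The summed proximal tubule list was at 8.76 and 21.8 CPM in CD organoids, which is 0.0777% and 0.194% of the adult mean. The adult libraries held 10124 and 12402 CPM of this list and 3580 and 3784 CPM of the loop list. Whether these came from kidney cells outside the duct was not tested, so the adult levels of these genes are not a standard for duct cells. Of the distal and connecting tubule list, *Calb1*, a calcium-binding protein of the connecting tubule, rose from 163 and 168 to 799.7 and 882 CPM and *Trpv5*, a calcium channel, from 0 and 0.0365 to 1.21 and 1.76 CPM, a ratio of 78.3 (95% counting interval 14.1 to 3093) on 1 count at day 10.

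The stromal list had 6 of 14 genes called higher and 1 lower. *Col1a2* rose from 0.396 and 0.729 to 41.4 and 23.4 CPM, *Col3a1* from 9.28 and 4.48 to 119 and 61.3 CPM, *Dcn*, decorin, from 0.555 and 0.401 to 22.4 and 21.5 CPM and *Pdgfra* from 3.01 and 2.63 to 17.4 and 9.62 CPM. The first CD organoid library held the higher value of each, and without it *Pdgfra* (1.75) and *Col3a1* (3.15) were not called. *Foxd1*, which marks kidney stroma progenitors, was at 0.0712 and 0.0802 CPM in CD organoids, *Pdgfrb* at 3.27 and 1.68 CPM and *Vim*, vimentin, at 13.8 and 9.54 CPM, and none of the 3 was called. *Twist1*, a mesenchymal factor that day 10 organoids held at 120.2 and 122 CPM, fell to 14 and 16 CPM. Of the urothelial list, 5 of 9 measured genes were called higher, but the uroplakin genes *Upk1b* and *Upk3b* stayed under 3 CPM and *Upk2* and *Krt5* were at or near 0. The highest levels of the list were those of *Foxa1* and of *Trp63*, which rose from 2.62 and 3.83 to 28.7 and 21.7 CPM and was at 38 and 37.5 CPM at day 20.

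Of the nephron progenitor list 3 of 4 measured genes were called lower, *Eya1*, *Crym* and *Tmem100*, all under 10 CPM at day 10, and *Six2*, which defines these progenitors, was under 0.4 CPM in all 4 libraries. The podocyte, endothelial and neuronal lists had 0, 0 and 0 genes called higher, and 0 of 6, 1 of 7 and 2 of 11 called lower. Of erythroid genes 1 reached the count limit.

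**Figure D5:**
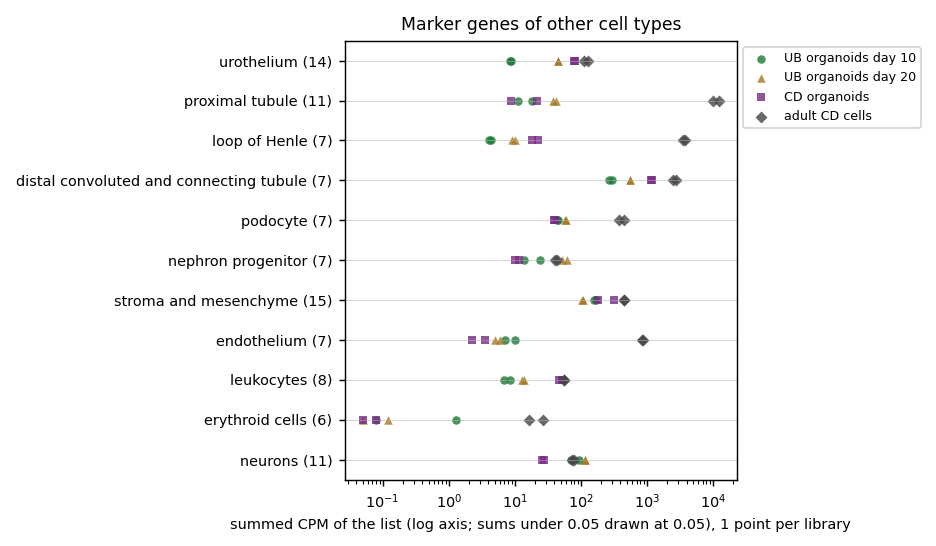
Summed CPM (log axis) of the autosomal marker genes of other cell types, with the number of genes in brackets and 1 point per library for day 10 (circles), day 20 (triangles), CD organoids (squares) and adult CD cells (diamonds). The squares lie far to the left of the diamonds for proximal tubule, loop of Henle and endothelium, and at the diamonds for leukocytes, where 1 gene, *Ptprc*, makes up most of the sum.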

How the data were processed

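RNA of 10 libraries was sequenced. Per the study's methods, the authors processed reads in Partek Flow with STAR on mm10 with GENCODE M24. The deposited table gives counts per gene, which were tested here, RPKM per gene made by the authors, used here only to compare levels between genes, and a signal column per library, scaled by the authors to similar totals and not used, beside a deposited gene length. The kit is given differently in the labels and in the methods.

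Counts were fitted with edgeR 4.0.16 (TMM factors, quasi-likelihood test, prior count of 1) over all 10 libraries and all 24410 genes with at least 10 counts over them, and p-values were adjusted over all of them by Benjamini-Hochberg. A call needs an adjusted p of at most 0.01 and more than 4-fold. Simulated counts for 23642 genes gave back 200 of 200 changed genes and 0 false calls. The changed genes were drawn only from genes with a mean of at least 1 CPM and were changed by well over 4-fold. Recovery among low genes or genes near 4-fold was thus not tested. DESeq2 1.42.0 and other settings were alternatives. With 2 libraries against 2 an exact permutation test cannot go below 0.333.

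Members, lists and families were chosen with earlier results of these data known. The 24 leading genes have the largest difference in CPM among called genes outside the marker lists, and further genes were chosen from the lists and families after their values were seen. Positions are GRCm38 (GENCODE M21), promoters RefSeq. X- and Y-linked genes were left out. Results of some genes, 1 of the 24 among them, are not reported here.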

Additional observations from a re-analysis of the deposited data

Results flagged for a closer look

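Outside the autosomal comparison, 4 Y-linked genes summed to a mean of 292 CPM in CD organoids and to under 1 CPM at day 10. Embryo sex and culture cannot be told apart between these groups.

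In 10 genes of the lists, day 20 and CD organoids were called on opposite sides of day 10. That choice fixes the direction and the large size of the difference between CD organoids and day 20, which is given as a value with no test. On the log2 scale it was -8.71 for *Egr1*, -10.31 for *Egr2*, -11.98 for *Egr3*, -8.89 for *Arc* and -7.79 for *Ccn1*, which are immediate early or actin-responsive genes. It was -6.80 for *Wif1*, a Wnt inhibitor, and -4.54 for *Slc7a11*, the cystine carrier. The 3 genes that were lower at day 20 and higher in CD organoids differed by 5.74 (*Ptges*), 5.48 (*Krt7*) and 7.49 (*Krt19*). Over all autosomal genes, 56 were called in opposite directions.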

How the results depend on the processing

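The counts of 1162 genes higher and 1315 lower stayed within 1.5 times under another prior count (904 and 1024), no filter (1183 and 1535), a stricter filter (1107 and 1294), RLE size factors (1201 and 1255), library totals (1094 and 1448), DESeq2 (1095 and 1135) and a fit of the 4 libraries alone (1122 and 1192). Leaving out 1 library gave 1045 to 1179 higher and 1114 to 1318 lower, the lone library being assumed to vary like the other groups. With any fold and an adjusted p up to 0.05, 5091 were higher and 5892 lower, 9816 differed between CD organoids and day 20 and 6689 between day 20 and day 10. Other scalings moved the median of all autosomal genes from -0.12 to between -0.21 and -0.06. They turned the sign of the medians, all near 0, of the BMP, basement membrane, immediate early and podocyte lists and of the Hox, metalloproteinase and proteasome families. *Ocln* (log2 fold change near 0) was at 0.029 with the stricter filter, 0.056 with RLE factors and with DESeq2, 0.012 with the 4 libraries alone and -0.031 to 0.056 when single libraries were left out. Without single libraries *Kremen1* was at -0.19 to 0.028 and *H2-Eb1* at -0.47 to 0.57. None of these 3 was called. Among 23 counts over lists, that of the proximal tubule (4 called higher) was 2 with a prior count of 5 and with the 4 libraries alone, that of the loop of Henle (5) was 3 with the 4 libraries alone, and 9 moved by over 1.5 times at any fold. *Atoh8*, *Acta2*, *Isg15* and *Oas1a*, all low, came under 4-fold with a prior count of 5. The call was also lost for *Atoh8* with RLE factors, *Esrra* with no filter and with library totals, *Isg15* with the 4 libraries alone and *Col3a1* with DESeq2.

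The replicate numbers gave no sign of pairing (correlation of deviations -0.0355 over 11831 genes), but a single comparison of deviations cannot exclude it. With the replicate number as a block, 1159 genes were higher and 1301 lower. Depth limits low genes: 3 counts were 0.109 to 0.241 CPM.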
